A study of Saccharomyces cerevisiae with 4 samples.

Results

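Transcripts of 42 genes that make, remodel and store glycerolipids were examined in budding yeast exposed to CG-1521, an inhibitor of histone deacetylases. The genes were taken by name: the Ino2-Ino4-Opi1 regulators and their targets, the CDP-diacylglycerol and Kennedy routes to phospholipids, and the genes of phosphatidic acid, cardiolipin, triacylglycerol and phospholipid breakdown. All 42 had a probeset, among 5449 named genes on the array. The study compared 2 cultures of Saccharomyces cerevisiae BY4741 that received 50 μM CG-1521 for 1 h with 2 cultures that received vehicle for the same time, 1 array per culture. All 4 were growing exponentially in YPD, a rich glucose medium, at the time. BY4741 is a haploid laboratory strain that lacks HIS3 function, LEU2, MET17 (MET15) and URA3, so both groups share these deletions. The design text calls the replicates independent biological ones, and nothing further is said of the cultures they came from.

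Yeast builds phosphatidylserine, phosphatidylethanolamine and phosphatidylcholine from CDP-diacylglycerol by decarboxylation and methylation, or from choline and ethanolamine through the Kennedy pathway. Many of these genes carry an inositol-sensitive promoter element, UASINO, bound by the activators Ino2 and Ino4. The repressor Opi1 is held at the endoplasmic reticulum by phosphatidic acid and enters the nucleus when inositol is plentiful. INO1 is also a textbook target of the Rpd3 deacetylase, which is brought to its promoter by Ume6. Phosphatidic acid is the branch point between membrane phospholipids and triacylglycerol, the storage fat of lipid droplets.

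Values were log2 array signals, and a gene was called where limma gave a Benjamini-Hochberg adjusted p under 0.05 over all 5449 genes. The 4 arrays had medians of 9.82 to 9.89 over all of them. Pearson correlations over genes, which are no replicates, were 0.994 between the control arrays, 0.983 between the CG-1521 arrays and 0.932 to 0.956 from control to CG-1521. Every lipid gene exceeded background on every array, where background was 2.42 to 2.45 and the lowest lipid gene value was 6.36. The deleted markers LEU2, MET17 and URA3 lay between 1.19 and 3.09. LEU2 went from 2.08 and 2.42 to 2.77 and 3.09 and was called higher (0.68, limma adjusted p = 0.0488), so a gene the strain lacks passed the threshold. HIS3, of which the strain keeps a part, lay between 10.21 and 10.91 and was called lower (-0.60, limma adjusted p = 0.0217). The 9 hybridization spike probesets were brighter with CG-1521 (medians 12.31 and 12.05) than in control (11.48 and 11.88), and their part in the results was not tested.

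With CG-1521, the inositol synthase gene INO1, the methyltransferase gene OPI3 and the phosphatase gene NEM1 more than doubled, and 5 further lipid genes rose by less. These were CKI1, PLB1, CHO1, GPT2 and ITR1. INM1 and LRO1 were among the genes that fell. In all, 8 of 42 genes rose (19.0%, against 12.9% of all genes tested), 3 fell (7.14%, against 16.8%) and 31 were not called. The 11 calls make up 26.2% of the lipid genes, close to the 29.7% of all genes, so the number of calls does not set them apart. The median log2 difference was 0.07 over the lipid genes and -0.04 over all genes. Only INO1, OPI3 and NEM1 reached a log2 difference of at least 1, which is 7.14% of the lipid genes against 8.46% of all genes.

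The arrays of the 2 groups did not overlap for 29 of the 42 genes (69.0%, against 72.3% of all genes). The 11 calls depended on both control arrays: without control replicate 1, or without control replicate 2, limma called 0 lipid genes, while 11 and 10 had an unadjusted p under 0.05. In these settings 1.39% and 1.21% of all genes were called. Every called lipid gene kept its direction in all 12 alternative settings, which could hardly come out otherwise. The groups of each did not overlap, so omitting 1 array cannot reverse its sign. Most other settings leave the difference as it is. With the replicate number as a block, 4 lipid genes were called, all higher: INO1, OPI3, NEM1 and CKI1.

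**Figure D1:**
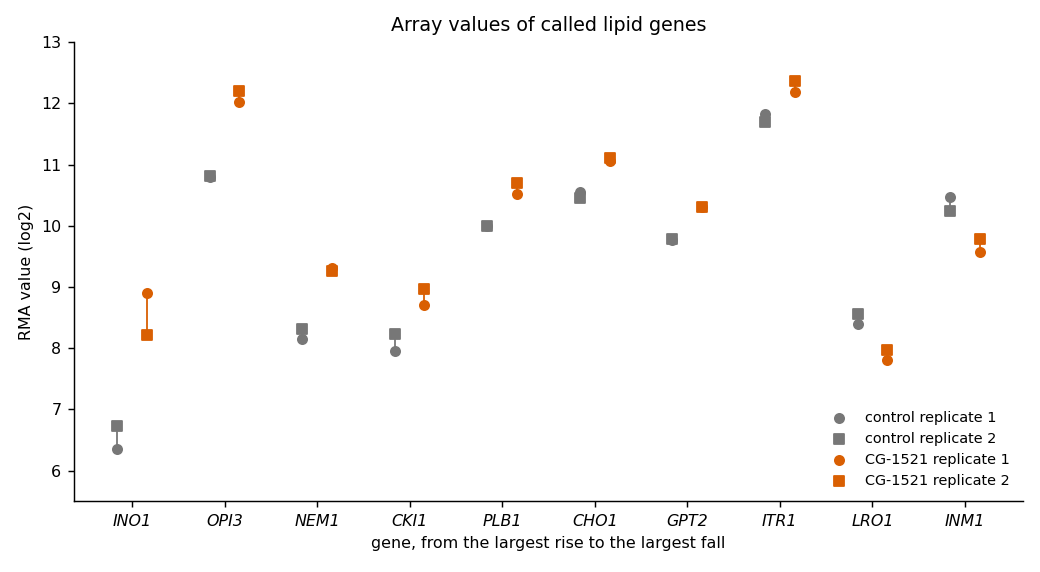
The log2 RMA value on each of the 4 arrays (vertical axis) is plotted for 10 of the 11 called lipid genes, ordered from the largest rise to the largest fall, with control arrays in grey, CG-1521 arrays in orange and a line joining the replicates of a group. In every gene drawn both CG-1521 points lie on the same side of both control points, as in 72.3% of all genes. The genes were drawn because they were called in these same data. INO1 has the widest gap between its CG-1521 points, 8.90 and 8.21.

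The regulators themselves were not called. INO2, the activator subunit whose own promoter is controlled by the circuit, read 6.93 and 7.28 in the control cultures against 6.93 and 6.88 with CG-1521. INO4, its partner, read 7.26 and 7.59 in control against 7.34 and 7.19 with CG-1521. Their groups overlapped. OPI1, the repressor, read 10.77 and 11.02 in control against 11.15 and 11.05 with CG-1521, so that its groups lay just apart, with a log2 difference of 0.21. The 95% intervals of the 3 differences were -0.59 to 0.20, -0.55 to 0.24 and -0.13 to 0.55. At an unadjusted p under 0.05, 0 of these 3 passed in limma, against 2437 of all 5449 genes.

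Genes of inositol supply moved in both directions. INO1 (YJL153C), the synthase that makes inositol 3-phosphate from glucose 6-phosphate, read 6.36 and 6.73 in the control cultures against 8.90 and 8.21 with CG-1521. Both CG-1521 values lay far above both control values, although they differed from each other by 0.70. The log2 difference was 2.01 (SE 0.27, limma adjusted p = 0.0135), or 4.03-fold, the 40th largest rise among all genes. Between arrays of the same number it was 2.54 for replicate 1 and 1.48 for replicate 2. The numbers were not taken to pair the samples.

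INM1 (YHR046C), a monophosphatase that turns inositol phosphate into free inositol, went the other way. It read 10.47 and 10.24 in control against 9.58 and 9.78 with CG-1521. That is a fall by 0.68 on the log2 scale (SE 0.14, limma adjusted p = 0.0272), with no overlap of the groups. The related monophosphatase INM2 read 8.83 and 8.93 in control against 9.20 and 9.28 with CG-1521, apart from control but not called (log2 difference 0.36, limma adjusted p = 0.0594); it was named after its value was seen. So the synthase and the first of these phosphatases, which act in succession, moved in opposite directions.

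Of the inositol carriers, ITR1 (YDR497C), the main plasma membrane transporter, rose from 11.82 and 11.69 to 12.19 and 12.37. Its log2 difference of 0.52 (SE 0.12, limma adjusted p = 0.0363) was the called change closest to the threshold, and without CG-1521 replicate 2 it was no longer called (adjusted p = 0.0548). ITR2, the minor carrier, read 10.75 and 10.79 in control against 10.33 and 10.77 with CG-1521. Replicate 2 of CG-1521 lay between the control values, and ITR2 was not called. Its difference was -0.44 without that array and -0.01 without CG-1521 replicate 1. Omitting CG-1521 replicate 1 ended the call of INM1 (adjusted p = 0.0571).

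**Figure D2:**
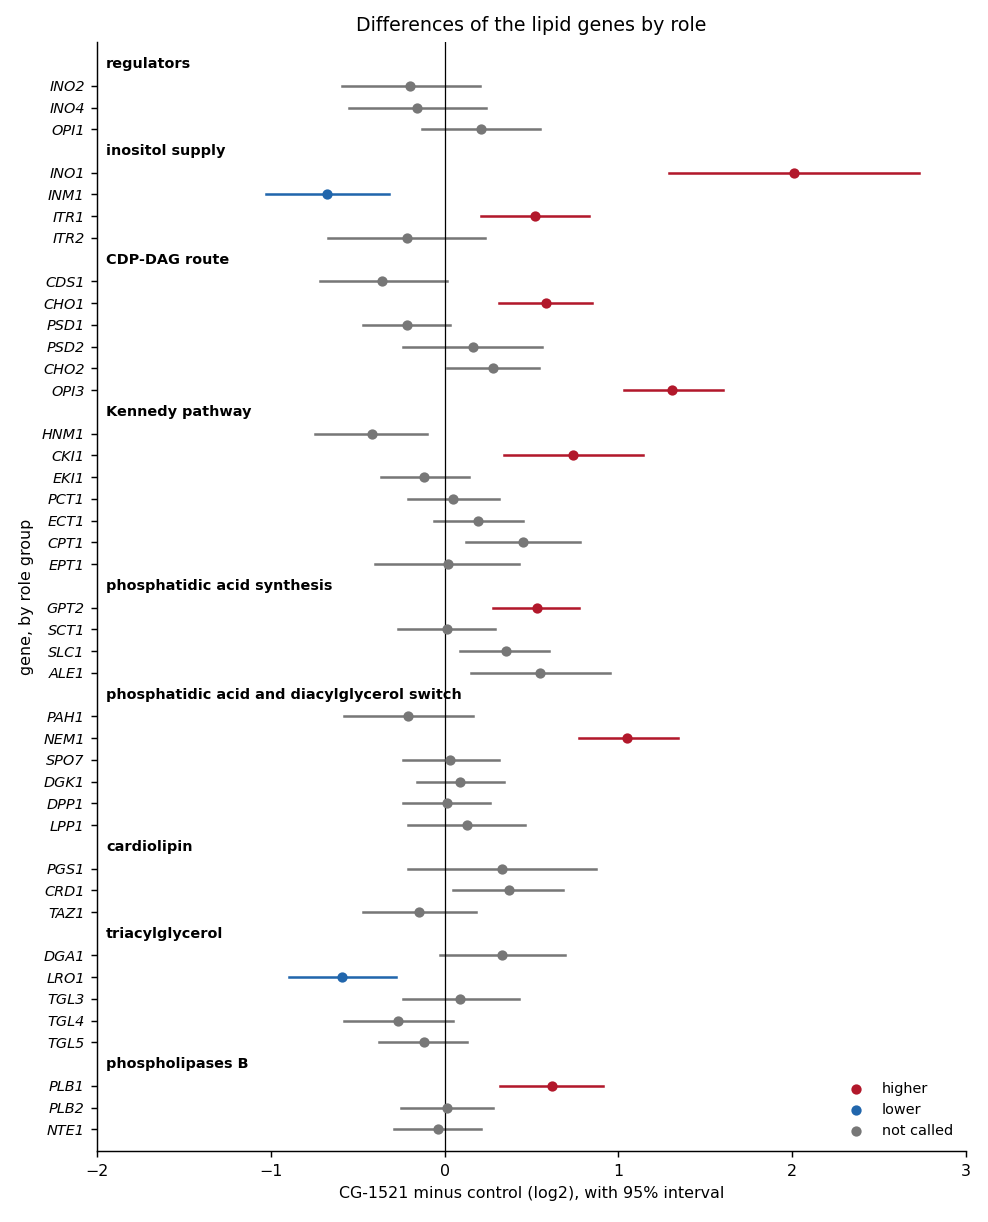
The CG-1521 minus control difference in log2 RMA value (horizontal axis) is shown for 41 of the 42 lipid genes grouped by role, with points for the fitted difference, bars for its 95% interval from limma, and red, blue and grey for higher, lower and not called. Inositol supply holds both the largest rise, INO1 at 2.01, and the largest fall, INM1 at -0.68, while all regulators and cardiolipin genes are grey.

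In the CDP-diacylglycerol route, the enzymes at both ends of the path from phosphatidylserine to phosphatidylcholine rose. CHO1 (YER026C), phosphatidylserine synthase, rose from 10.56 and 10.45 to 11.06 and 11.11, a log2 difference of 0.58 (SE 0.10, limma adjusted p = 0.0214). OPI3 (YJR073C), which carries out the last methylations that yield phosphatidylcholine, rose from 10.80 and 10.81 to 12.03 and 12.20. At a log2 difference of 1.31 (SE 0.11, limma adjusted p = 0.00757), or 2.48-fold, OPI3 had the smallest p of the 42 genes. Its replicates lay closer together than those of INO1 in both groups.

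The steps between were not called, nor was CDS1, which acts before CHO1. CHO2, the methyltransferase that acts just before Opi3, read 11.82 and 11.72 in control against 12.05 and 12.04 with CG-1521, a log2 difference of 0.28 (limma adjusted p = 0.0991), with no overlap. PSD1, the mitochondrial phosphatidylserine decarboxylase, read 9.73 and 9.72 in control against 9.50 and 9.51 with CG-1521. That is a difference of -0.22, again with no overlap and very close replicates (limma adjusted p = 0.140). PSD2, the decarboxylase of the Golgi and endosomes, overlapped between groups (0.16). CDS1, which makes CDP-diacylglycerol from phosphatidic acid, read 8.77 and 8.81 in control against 8.28 and 8.59 with CG-1521 and was not called (-0.36, limma adjusted p = 0.117). The difference of CDS1 was -0.51 without CG-1521 replicate 2 and -0.20 without CG-1521 replicate 1.

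In the Kennedy pathway 1 of 7 genes rose (14.3%, against 12.9% of all genes) and 0 fell (against 16.8%). By limma, 2 were higher and 1 was lower at an unadjusted p under 0.05, against 1054 and 1383 of all 5449 genes. CKI1 (YLR133W), choline kinase, read 7.96 and 8.23 in control against 8.71 and 8.96 with CG-1521. Its log2 difference was 0.74 (SE 0.15, limma adjusted p = 0.0290). CPT1, the cholinephosphotransferase that ends the choline branch, read 9.91 and 9.93 in control against 10.25 and 10.50 with CG-1521. It was apart from control at 0.45 but not called (limma adjusted p = 0.0560). Its difference was 0.58 without CG-1521 replicate 1 and 0.32 without CG-1521 replicate 2. With an intensity trend in the fit it was called (limma adjusted p = 0.0332).

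The middle step of the choline branch, PCT1, which makes CDP-choline, stood at 0.05 with overlapping groups (95% interval -0.21 to 0.31). The ethanolamine branch held no call: EKI1, ethanolamine kinase, stood at -0.12, ECT1, which makes CDP-ethanolamine, at 0.19, and EPT1, its phosphotransferase, at 0.02. HNM1, the plasma membrane choline carrier, read 8.39 and 8.30 in control against 8.04 and 7.81 with CG-1521, below control on both arrays. Its difference of -0.42 was not called (limma adjusted p = 0.0625). This difference was -0.53 without CG-1521 replicate 1 and -0.31 without CG-1521 replicate 2.

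Of the 4 genes of phosphatidic acid synthesis, 1 was called (25%, against 29.7% of all genes). GPT2 (YKR067W), a glycerol 3-phosphate acyltransferase of the first step, rose from 9.77 and 9.79 to 10.31 and 10.30. Replicates differed by 0.02 or less in each group, and the log2 difference was 0.53 (SE 0.09, limma adjusted p = 0.0218). SCT1, the other acyltransferase of that step, stood at 0.01, with a 95% interval of -0.27 to 0.29. For the second step, SLC1 read 10.76 and 10.73 in control against 11.12 and 11.06 with CG-1521, a difference of 0.35. ALE1, which acylates a wide range of lysophospholipids, read 10.46 and 10.23 in control against 10.75 and 11.04 with CG-1521, a difference of 0.55. Both lay above control on both arrays and just missed the threshold (limma adjusted p = 0.0555 for SLC1 and 0.0562 for ALE1). The difference of ALE1 was 0.70 without CG-1521 replicate 1 and 0.40 without CG-1521 replicate 2.

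Of 6 genes that carry out or control the switch between phosphatidic acid and diacylglycerol, 1 was called (16.7%, against 29.7% of all genes). That was NEM1, which belongs to the control side. NEM1 (YHR004C) encodes the catalytic subunit of the phosphatase that activates Pah1, and it read 8.15 and 8.32 in control against 9.31 and 9.26 with CG-1521. The log2 difference was 1.05 (SE 0.11, limma adjusted p = 0.00935), or 2.08-fold. SPO7, the regulatory subunit of the same phosphatase, read 7.16 and 7.23 in control against 7.29 and 7.17 with CG-1521, with overlapping groups and a difference of 0.03 (95% interval -0.24 to 0.31). The intervals of the catalytic and regulatory subunits, 0.77 to 1.34 for NEM1, did not overlap, and the difference between them was not tested.

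PAH1, the phosphatidate phosphatase that Nem1-Spo7 acts on, read 10.33 and 10.65 in control against 10.30 and 10.26 with CG-1521 (difference -0.21, not called). DGK1, the diacylglycerol kinase that runs the reverse reaction, stood at 0.09. The lipid phosphate phosphatases DPP1 and LPP1 stood at 0.01 and 0.13. DPP1 read 11.20 in both control cultures and 11.20 and 11.21 with CG-1521, the smallest spread of any lipid gene over the 4 arrays.

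No cardiolipin gene was called in limma, and 1 of 3 had an unadjusted p under 0.05, against 2437 of all 5449 genes. That was CRD1, cardiolipin synthase of the inner mitochondrial membrane, which read 8.48 and 8.47 in control against 8.73 and 8.96 with CG-1521 (0.37, limma adjusted p = 0.0793). The difference of CRD1 was 0.48 without CG-1521 replicate 1 and 0.26 without CG-1521 replicate 2. PGS1, which makes the phosphatidylglycerol phosphate precursor, read 10.47 and 9.99 with CG-1521 against 9.76 and 10.04 in control, so only replicate 1 lay above both controls. TAZ1, the acyltransferase that remodels cardiolipin, stood at -0.15 with overlapping groups.

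The enzymes that make triacylglycerol were split in sign. LRO1 (YNR008W), which takes the acyl chain for triacylglycerol from a phospholipid, fell from 8.40 and 8.56 to 7.81 and 7.97. The log2 difference was -0.59 (SE 0.12, limma adjusted p = 0.0281). DGA1, which takes it from acyl-CoA, read 10.83 and 10.61 in control against 11.16 and 10.94 with CG-1521. DGA1 lay above control at 0.33 in the fit and was not called (limma adjusted p = 0.136). Of the lipases that mobilise stored fat, TGL3, the major lipase of the lipid droplet, stood at 0.09, TGL4 at -0.27 and TGL5 at -0.12, and none was called. Omitting CG-1521 replicate 1 ended the call of LRO1 (adjusted p = 0.0558).

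Of the phospholipases B, which remove both acyl chains from a phospholipid, PLB1 (YMR008C) rose from 10.00 and 9.99 to 10.52 and 10.70. Its log2 difference was 0.62 (SE 0.11, limma adjusted p = 0.0221). PLB2 stood at 0.01 with overlapping groups, and NTE1, the phospholipase that turns phosphatidylcholine into glycerophosphocholine at the endoplasmic reticulum, stood at -0.04.

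Among the 31 genes not called, every 95% interval lay within a log2 difference of 1 in either direction, so a change of 2-fold lies outside each interval. These genes reached at most 0.55 in size, in ALE1.

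**Figure D3:**
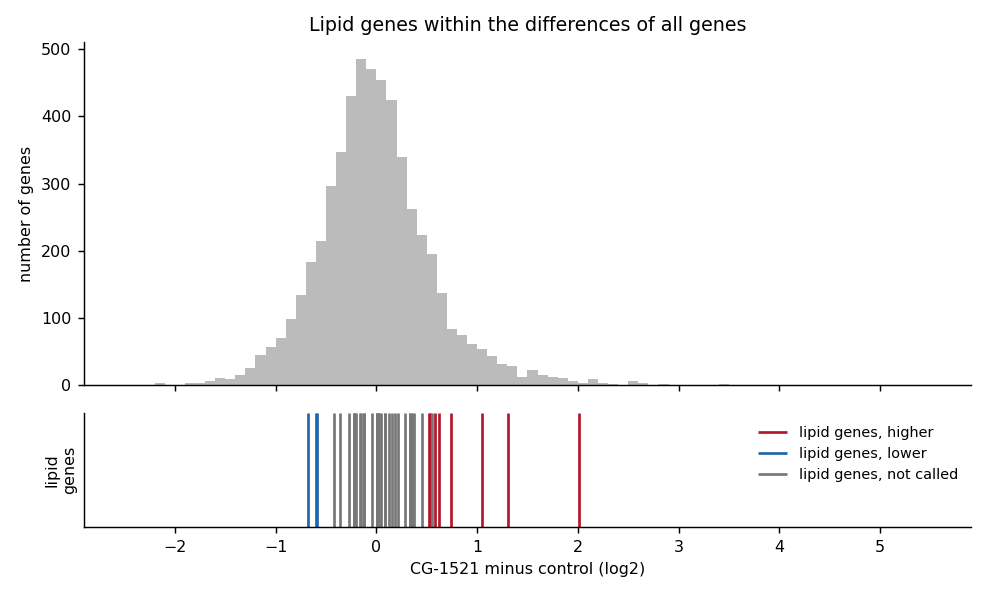
The upper panel is a histogram of the CG-1521 minus control differences (log2, horizontal axis) of all 5449 genes, counted per bin, and the lower panel marks each of the 42 lipid genes at its own difference, in red, blue or grey for higher, lower and not called. The lipid genes lie between -0.68 and 2.01, while all genes run from -2.33 to 5.21.

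The targets of the Ino2-Ino4-Opi1 circuit rose in part. Of 14 lipid genes listed as carrying UASINO, 5 rose (35.7%, against 12.9% of all genes), namely INO1, OPI3, CKI1, CHO1 and ITR1. The other 9 were not called, and by limma 0 fell (against 16.8% of all genes). At an unadjusted p under 0.05, 1 gene, HNM1, had a negative difference, against 1383 of all 5449 genes. Within the list the differences ran from -0.42 in HNM1 to 2.01 in INO1, with a median of 0.24 against -0.04 over all genes. HNM1, CDS1, PSD1, INO2 and EKI1 had negative differences, so the list did not move as a block. Of the 28 lipid genes outside it, 3 rose and 3 fell (10.7% each, against 12.9% and 16.8% of all genes), with a median of 0.04. The list was drawn up with earlier results of these data known, and no test was made of it.

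Related enzymes and carriers were set side by side in 6 pairs, and each gene had a probeset of its own without the suffix for shared probes. In CKI1/EKI1, GPT2/SCT1, ITR1/ITR2 and PLB1/PLB2 the first gene rose and its relative was not called. The change of the first exceeded that of the second by 0.86 in the kinases, 0.51 in the acyltransferases, 0.74 in the inositol carriers and 0.60 in the phospholipases. In CPT1/EPT1 and TGL4/TGL5 neither was called, and the changes differed by 0.44 and -0.14. In all 6 pairs the gap between the genes on both CG-1521 arrays lay outside its control values, only just so in TGL4/TGL5. Of single genes, 72.3% had groups that did not overlap. That share was not counted for gaps between gene pairs, so it sets no level for these 6. CKI1, GPT2, ITR1 and PLB1 were called in these same data, and the genes were chosen with earlier results known. Whether related genes differ more than other pairs was not tested. No p is drawn on here, because with 4 arrays the exact two-sided permutation test cannot go below 0.333.

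**Figure D4:**
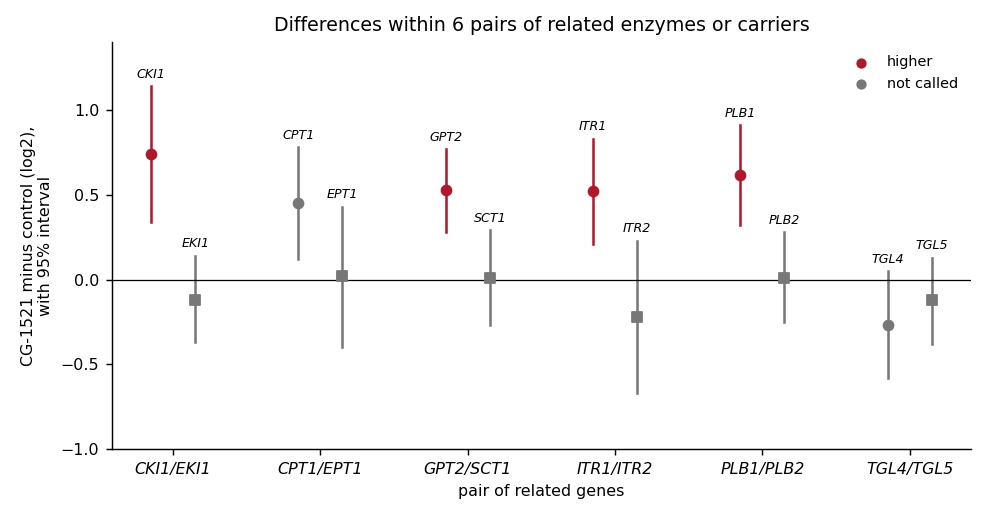
The CG-1521 minus control difference (log2, vertical axis) with its 95% interval from limma is shown for both genes of 6 related pairs, the first as a circle and the second as a square, in red where higher and grey where not called. CKI1, GPT2, ITR1 and PLB1 lie above 0 by 0.52 to 0.74, and their relatives lie between -0.22 and 0.01.

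Neighbouring lipid pathways, listed by function with earlier results known, held calls at shares of 17.6%, 21.7% and 18.2%, below the 29.7% of all genes; the difference was not tested. Of 17 genes that phosphorylate, dephosphorylate or cleave phosphoinositides, 3 fell (17.6%, against 16.8% of all genes) and 0 rose in limma (against 12.9%). At an unadjusted p under 0.05, 1 had a positive difference, against 1054 of all 5449 genes. SAC1, the phosphatase that removes phosphatidylinositol 4-phosphate at the endoplasmic reticulum, fell from 9.51 and 9.56 to 8.66 and 8.82 (-0.80, SE 0.11, limma adjusted p = 0.0138). PLC1, the phospholipase C that releases inositol trisphosphate, fell from 10.51 and 10.71 to 9.97 and 9.95 (-0.65, SE 0.12). INP54, a 5-phosphatase, fell by 0.36 and lost its call in 9 of the 12 alternative settings.

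Of 23 measured lipid droplet and other glycerolipid genes, 4 rose (17.4%, against 12.9% of all genes) and 1 fell (4.35%, against 16.8%). Their median difference was 0.02. ICT1, a lysophosphatidic acid acyltransferase, rose from 10.14 and 10.02 to 12.13 and 12.39, a log2 difference of 2.18 (SE 0.13, limma adjusted p = 0.00676), and was called in all 12 alternative settings. SCS3, an endoplasmic reticulum protein needed when inositol is scarce, rose from 7.58 and 7.99 to 8.90 and 8.64 (0.98), and TGL2, a mitochondrial lipase, rose from 6.62 and 6.49 to 7.33 and 7.54 (0.88). SPO14, phospholipase D, rose by 0.47 and was named after its value was seen. YEH1, a steryl ester hydrolase, fell from 8.98 and 8.90 to 8.36 and 8.13 (-0.70).

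Of 11 genes of mitochondrial lipid transfer and cardiolipin remodelling, 1 rose (9.09%, against 12.9% of all genes) and 1 fell (9.09%, against 16.8%). UPS3, of the family of intermembrane space lipid carriers, fell from 9.00 and 9.14 to 8.02 and 8.10 (-1.01, SE 0.11, limma adjusted p = 0.00937). MDM34, part of the tether between mitochondria and endoplasmic reticulum, rose from 10.62 and 10.56 to 11.36 and 11.05 (0.61, SE 0.14). Apart from ICT1, each call in these 3 lists was lost without control replicate 1 and without control replicate 2.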

How the data were processed

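Per the labels' protocols, RNA of 4 cultures was extracted after enzymatic lysis with zymolyase and labelled with biotin. Per the submitters' processing notes, the deposited log2 values were made by the authors with Affymetrix Expression Console and RMA, which corrects background, quantile-normalizes the arrays and summarises the probes of a probeset. Their versions are not given in the sources used here. A change of all transcripts in the same direction would not show in such values. Of 10928 probesets, 5498 were tied to budding yeast genes of annotation R64 through the platform's gene identifiers. Where 47 genes had several probesets, that with the highest mean was kept, and each lipid gene had 1. Background was the 95th percentile of 1746 S. pombe probesets on each array. Differences were fitted across all 5449 genes with limma 3.58.1 in R 4.3.3 (lmFit, eBayes, no block, two-sided, Benjamini-Hochberg adjusted, called under 0.05), with 2 residual and 2.69 prior degrees of freedom. The procedure was tested on simulated data. The number of arrays limits the precision: the median SE was 0.12. Of the 42 lipid genes, 41 are named and 1, which enters the counts, is not reported here by name, along with up to 4 called genes of smallest p from each neighbouring list. GPC1 had no match and PSI1 is the same gene as CST26. Members and lists were chosen with earlier results of these data known. Promoter motifs and protein identities were not analysed here.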

Additional observations from a re-analysis of the deposited data

How the results depend on the processing

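The 11 called lipid genes kept their direction in all 12 alternatives, and 0 of them stayed called in every one, since omitting a control array ended all calls. The kept direction gives no support, because groups that do not overlap cannot change sign when 1 array is omitted. Most other settings leave the difference as it is. With the replicate number as a block, 4 lipid genes were called (4 higher and 0 lower, in 4 of the role groups), against 11 (8 and 3, in 7 groups). The block left 3 UASINO genes higher, 6 calls in the neighbouring lists and 819 calls among all genes. A fit of every feature on the array together gave 3 lipid genes (3 higher and 0 lower, in 3 role groups), 2 UASINO genes, 6 neighbouring calls and 778 calls among all genes. Limma gave 4 lower genes at an unadjusted p under 0.05 in both of these settings. Leaving out 1 array gave 0 to 12 lipid genes, 0 to 11 higher, 0 to 5 lower, 0 to 7 role groups, 0 to 6 UASINO genes, 1 to 15 neighbouring calls and 66 to 2134 calls among all genes. With a control array left out, the spread rests on the CG-1521 pair alone, and the remaining control is assumed to vary like it. With a CG-1521 array left out, the spread likewise rests on the control pair alone. An intensity trend added 4 calls, all higher (ALE1, CHO2, CPT1 and SLC1). Renewed quantile normalization added SLC1. Centring the arrays, a background filter and averaging probesets left the 11 calls as they were. Deviations of same-numbered arrays correlated at -0.26 over all genes and -0.47 over the lipid genes, so the numbers were not taken to pair the samples. A crossed pairing, chosen after seeing the data, gave 12 lipid genes and 1820 among all genes. The cause of these shifts was not tested.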

Other observations

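Genes next to the lipid genes on the chromosomes were looked up by gene order. Of 77 flanking genes with a probeset, 30 were called (39.0%, against 29.7% of all genes), and this difference was not tested. A called lipid gene had a measured neighbour in 18 cases. In 11 of these the neighbour was called too, 7 times in the same direction. Of all genes, 12.9% rose and 16.8% fell. The share among neighbouring genes at large was not counted, and none of this was tested. Examples of opposite sign, chosen after their values were seen, are GPT2 beside CCP1, cytochrome c peroxidase (-2.11), and ITR1 beside PUF6 (-0.82).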
